A study of Rattus norvegicus with 24 samples.

Results

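The genes described here are the rat genes of the early secretory pathway, the route by which new proteins enter the endoplasmic reticulum (ER) and travel to the Golgi. They were chosen by symbol alone, with no expression value used, from 10 families of gene names: Sec11 to Sec63, Ssr, Spcs, Pdia, Sar1, Cop, Arf, Arfgap, Tmed and Kdelr. This gave 66 genes of the 14217 that the array annotation names through probe sets assigned to 1 gene, and each gene was read from the probe set with the highest mean log2 intensity over all arrays. The 66 comprise 15 translocon and signal peptidase genes, 5 disulfide isomerases, 10 COPII coat genes and 17 COPI coat and Arf genes. The rest are 13 cargo receptors, 3 Sec22 genes and 3 Sec14-like genes. The Sec14-like genes encode lipid-binding proteins that the name pattern caught although they are not ER to Golgi genes. These roles were assigned by gene name, so not every Arf or Tmed protein need act on this route. The figures label the Sec22 genes as SNAREs, a role known for Sec22b.

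The data were 24 Affymetrix rat 230 2.0 arrays, each hybridised with RNA from 1 pool of 5 male rats aged 10 to 13 weeks (10 to 12 weeks for the second NIL pool). SHR, the spontaneously hypertensive rat, gave 5 arrays of the pituitary's neurointermediate lobe (NIL), 5 arrays of a hypothalamic nucleus, the paraventricular (PVN), 4 arrays of another, the supraoptic (SON), and 5 arrays of the brainstem's rostral ventrolateral medulla (RVLM). WKY, the normotensive Wistar-Kyoto strain, gave 5 arrays of the RVLM. No treatment was named for any group, and WKY tissue other than the RVLM was not analysed here. The labels do not say whether pools of different structures came from the same rats, so p-values measure the spread between pools.

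Proteins with a signal sequence enter the ER through the Sec61 channel, lose the signal to signal peptidase and are folded and cross-linked by disulfide isomerases. COPII vesicles carry them toward the Golgi with the help of p24 (Tmed) cargo receptors, and COPI vesicles, assembled by Arf GTPases, return escaped ER proteins that KDEL receptors have bound. Magnocellular neurons of the PVN and SON make vasopressin and oxytocin as such cargo and send it down axons into the neural lobe, the melanotrophs of the intermediate lobe make pro-opiomelanocortin, and the RVLM holds neurons that drive sympathetic outflow.

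The dissections carried transcripts known from the structures on their labels. Vasopressin (Avp) intensity was 1226 ± 175 in the NIL, 4453 ± 522 in the PVN and 5056 ± 495 in the SON, against 17.3 ± 3.45 in the SHR RVLM, while Pomc was 868 ± 254 in the NIL and Pnmt, the adrenaline-forming enzyme, 192 ± 50.8 in the SHR RVLM (all ± SD, n as above). The 5 RVLM catecholamine neuron markers, Pnmt among them, did not set the RVLM apart as a list. They summed to 424 to 552 in the SHR RVLM, 517 to 631 in the SON and 227 to 502 in the PVN. Of the 2 bright enough to test among the SHR arrays, 1 was higher and 1 lower in the RVLM than in PVN and SON. The Spearman correlation of each array with the others of its group ran from 0.912 to 0.970, and the lowest belonged to PVN array 3. That array read 38.1 for Crh, the corticotropin-releasing hormone gene, where the other PVN arrays read 393 to 514, and its 8 meningeal and connective tissue markers summed to 10765 against 669 to 862, so results that rest on it are given with and without it. NIL arrays also carried anterior pituitary hormone transcripts, with summed intensities of 2946 to 16654 against 95.8 to 238 in the other groups. In bulk tissue, fewer cells of a type and less RNA per cell cannot be told apart.

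Most early secretory genes were highest in the pituitary lobe and lowest in the medulla. The NIL had the highest mean of the 4 SHR structures for 49 of the 66 genes, the SON for 9, the PVN for 4 and the RVLM for 4, and the RVLM had the lowest mean for 51. These are means of deposited intensities and include genes too dim to test. Among the genes tested below, the counts of highest means were 48, 9, 2 and 3, and the RVLM was lowest for 48. The same count was not made over all named genes, so it has no share to set beside it. Relative to the mean of the SHR RVLM arrays, the median log2 intensity of the genes tested below was 0.71 to 0.82 on the NIL arrays. It was 0.36 to 0.50 on the SON arrays and 0.04 to 0.54 on the PVN arrays. The SHR RVLM arrays themselves ran from -0.23 to 0.15, with array 2 the lowest, and the WKY RVLM arrays from 0.02 to 0.13. The NIL arrays did not overlap any other group on this measure, whereas the PVN and SON ranges overlapped. The median of all named genes that were tested, on the same scale, was 0.04 to 0.15 on the NIL arrays and 0.05 to 0.10 on the SON arrays. It was -0.08 to 0.28 on the PVN arrays, where arrays 1 and 4 were the highest and lowest on both measures.

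**Figure D1:**
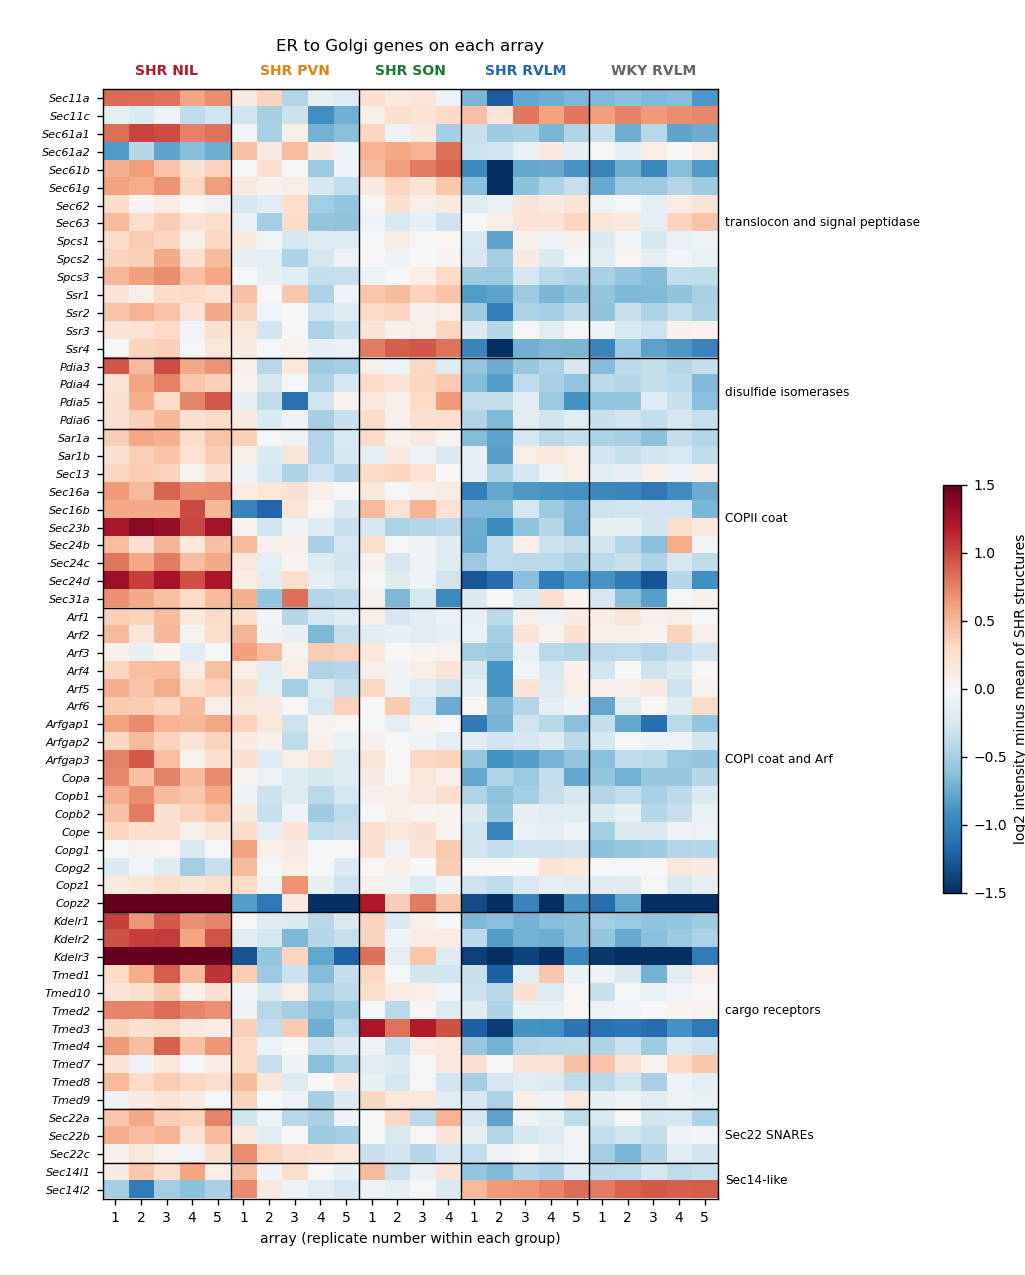
Log2 intensity of the 62 tested genes (rows, by role) on each of the 24 arrays (columns), minus the mean of the 4 SHR structure means, with colours saturated at the ends of the scale. The 5 NIL columns are mostly red and the 10 RVLM columns mostly blue, with Sec11c and Sec14l2 in the opposite pattern and Sec61a2 lowest in the NIL and highest in the SON.

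Differences were tested with limma on log2 intensity, and a call required an adjusted p (Benjamini-Hochberg, over all 18625 probe sets that passed a filter on dim signal) under 0.05. Of the 66 genes, 62 passed that filter among the SHR arrays (Pdia2, Sec14l3, Tmed5 and Tmed6 did not) and 60 among the RVLM arrays. Copz2, Kdelr3 and Sec16b passed only with the other structures present, so a high level in another structure was a condition of their being tested. An F test over the 4 SHR structures called 59 of the 62, and the same test called 80.0% of all named genes tested. Shares and medians of all named genes below are over those that passed the filter, 10596 among the SHR arrays and 10400 among the RVLM arrays.

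Between the NIL and the RVLM, 55 of 62 genes were called, 51 higher in the NIL and 4 lower, where 67.8% of all named genes tested were called, 37.6% higher and 30.2% lower. The median log2 difference was 0.73 over the 62 and 0.10 over all named genes tested. NIL against the mean of PVN and SON gave 47 calls, 43 higher and 4 lower, with 58.9% of all named genes called (30.8% higher, 28.1% lower) and medians of 0.42 and 0.03. RVLM against the mean of PVN and SON gave 38 calls, 4 higher and 34 lower, with 50.6% of all named genes called (21.4% higher, 29.2% lower) and medians of -0.35 and -0.08. These comparisons share arrays, so their agreement is not independent. PVN against SON gave 15 calls, 1 higher in the PVN and 14 lower, with 16.1% of all named genes called (9.02% higher, 7.12% lower) and medians of -0.22 and 0.01. Without PVN array 3 that count became 22, 3 higher and 19 lower, with 23.0% of all named genes called. It was 24 with values as deposited, 25 with quantile normalization, 31 with array weights and 9 with the PVN and SON arrays fitted alone, where 21.5%, 22.03%, 28.0% and 7.98% of all named genes were called. Without SON array 1 or 3 it was 10. When any single array was left out in turn, 52 of the 55, 39 of the 47, 33 of the 38 and 10 of the 15 calls were kept throughout. The calls not kept were Copg1, Copg2 and Sec16b in the first comparison, Arf2, Arf3, Arfgap3, Sec16b, Sec24b, Sec61g, Spcs1 and Tmed10 in the second, Arfgap2, Cope, Pdia5, Sec16b and Tmed8 in the third, and Kdelr3, Pdia5, Pdia6, Sec16b and Sec61a2 between PVN and SON. Leaving out the 3 Sec14-like genes gave 53, 46, 36 and 15 calls in the same order.

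Other tissue content differed between the same groups. All 7 tested oligodendrocyte markers and 7 of 8 pan-neuronal markers were lower in the NIL and higher in the RVLM than in the hypothalamic nuclei. Oligodendrocyte markers summed to 641 to 757 on the NIL arrays, 3473 to 8776 in the PVN, 4744 to 5317 in the SON and 13869 to 17010 in the SHR RVLM. Pan-neuronal markers summed to 3143 to 3512 on the NIL arrays, 7475 to 8625 in the PVN, 7756 to 8618 in the SON and 19312 to 23300 in the SHR RVLM. All 4 tested melanotroph markers and all 5 tested anterior pituitary markers were higher in the NIL than in the hypothalamic nuclei. Among the RVLM arrays alone, 3 and 2 genes of these lists passed the filter. A high level in the NIL can thus have been a condition of testing for some of them. The melanotroph list summed to 4502 to 5619 on the NIL arrays and 827 to 2359 on the other SHR arrays. No marker of any list was at 0. The part of cell composition in the differences between structures was not tested.

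**Figure D2:**
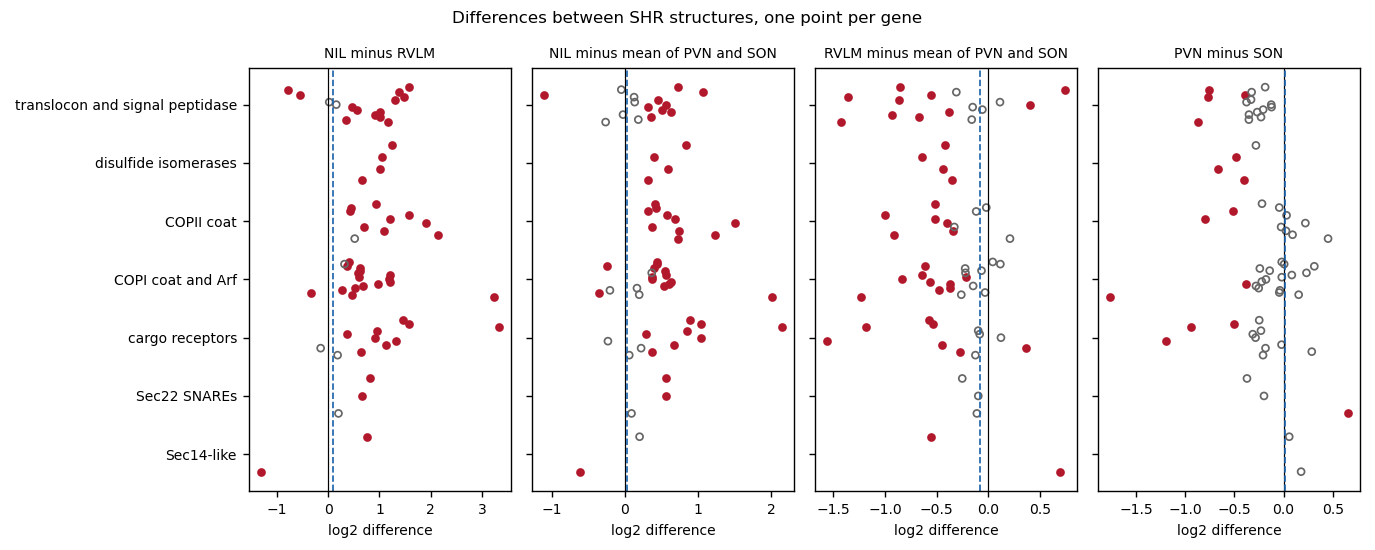
Log2 difference of each tested gene, by role, in the 4 comparisons between SHR structures. Filled red points passed the adjusted p threshold and open points did not. The solid line is 0 and the dashed blue line the median of all named genes tested. NIL minus RVLM has 51 of 62 genes called to the right of 0, and PVN minus SON 14 called to the left.

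Among the translocon and signal peptidase genes, 11 of 15 were higher in the NIL than in the RVLM and 2 were lower, Sec61a2 and Sec11c. Both are alternative subunits whose partners went the other way. Of all named genes tested, 37.6% were called higher and 30.2% lower in this comparison. Array values here and below are deposited intensities in order of array number. Sec61a1 and Sec61a2 encode alternative forms of the pore-forming subunit of the Sec61 channel. Sec61a1 read 253, 297, 284, 266 and 264 on the NIL arrays, 122, 102, 147, 99.2 and 101 on the PVN arrays and 179, 141, 162 and 106 on the SON arrays. Sec61a1 in the SHR RVLM read 114, 103, 96.4, 84.3 and 96.2. Every NIL array stood above every other array for Sec61a1, with a log2 difference of 1.07 (SE 0.137, adjusted p = 7.15e-07) against PVN and SON and 1.38 (SE 0.155, adjusted p = 7.11e-08) against the RVLM. Sec61a2 read 169.9, 233, 179, 216 and 192 on the NIL arrays, 362, 335, 406, 378 and 316 on the PVN arrays and 442, 468, 454 and 568 on the SON arrays. Sec61a2 in the SHR RVLM read 246, 259.6, 270.5, 322 and 259. Every NIL array stood below every other array for Sec61a2, with a log2 difference of -1.104 (SE 0.105, adjusted p = 7.89e-09) against PVN and SON and -0.55 (SE 0.119, adjusted p = 0.00034) against the RVLM. Sec61a2 was also -0.40 (SE 0.126, adjusted p = 0.0381) in the PVN against the SON, a call lost on leaving out any 1 of the SON arrays or PVN array 2, 4 or 5 (log2 difference -0.43 to -0.32, adjusted p = 0.0571 to 0.137).

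Sec11a and Sec11c encode alternative catalytic subunits of signal peptidase. Sec11a read 724, 736, 712, 668 and 685 on the NIL arrays, 384, 504, 286, 418 and 383 on the PVN arrays and 477, 458, 469.6 and 404 on the SON arrays. Sec11a in the SHR RVLM read 251, 177, 224, 229.8 and 233. Sec11a was highest in the NIL and lowest in the RVLM, with neither group overlapping the hypothalamic arrays, and the NIL minus RVLM log2 difference was 1.58 (SE 0.13, adjusted p = 5.17e-10). Sec11c read 1129.6, 1113, 1196, 1052 and 1066 on the NIL arrays, 886, 878, 965, 748 and 823 on the PVN arrays and 1342, 1518, 1478 and 1603 on the SON arrays. Sec11c in the SHR RVLM read 1716, 1497, 2048, 1804 and 1996. For Sec11c the RVLM arrays lay above all NIL and PVN arrays and overlapped the SON arrays, and the PVN arrays lay below all others in deposited intensity only. The NIL minus RVLM log2 difference of Sec11c was -0.79 (SE 0.126, adjusted p = 9.79e-06), and its PVN minus SON difference was -0.76 (SE 0.133, adjusted p = 0.000723). Against the mean of PVN and SON, NIL Sec11c differed by -0.05 (adjusted p = 0.734).

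Sec61b, Ssr4 and Ssr1 had their highest mean in the SON with the probe sets read here. Sec61b encodes the small beta subunit of the Sec61 channel. Sec61b read 1542, 1683, 1446, 1378 and 1417 on the NIL arrays, 942, 1248, 1009, 824 and 1118 on the PVN arrays and 1491, 1698, 1880.1 and 2036 on the SON arrays. Sec61b in the SHR RVLM read 551, 307, 586, 596 and 532, with array 2 far below the rest. The log2 difference of Sec61b was -0.77 (SE 0.181, adjusted p = 0.0072) for PVN minus SON and -1.36 (SE 0.151, adjusted p = 1.89e-07) for RVLM minus PVN and SON, or -1.15 without RVLM array 2. Ssr4 encodes a subunit of the translocon-associated protein complex. Ssr4 read 819.9, 1088, 1081, 906 and 991 on the NIL arrays, 799.6, 822, 841, 877 and 852 on the PVN arrays and 1443, 1626, 1649 and 1537 on the SON arrays. Ssr4 in the SHR RVLM read 427, 224, 484, 499.9 and 483, again with array 2 lowest. The SON arrays lay above all others for Ssr4 and the RVLM arrays below all others. Its log2 difference was -0.87 (SE 0.185, adjusted p = 0.00343) for PVN minus SON and -1.43 (SE 0.155, adjusted p = 1.23e-07) for RVLM minus PVN and SON, or -1.19 without RVLM array 2. Ssr1, another subunit of that complex, read 639, 611, 679.7, 754 and 678 on the NIL arrays, 664, 558, 711, 454 and 583 on the PVN arrays and 748, 800.3, 727 and 786 on the SON arrays. The SHR RVLM arrays, at 314, 335, 362, 329 and 336 for Ssr1, lay below all of these, with a log2 difference of -0.94 (SE 0.113, adjusted p = 6.2e-07) against the hypothalamic nuclei. A dimmer Ssr1 probe set gave -0.73 there (adjusted p = 3.52e-07). It was called at -0.99 in PVN minus SON (adjusted p = 3.33e-06), where the brighter one gave -0.35 (adjusted p = 0.0853). In NIL minus PVN and SON it was called at 0.45 (adjusted p = 9.94e-05), where the brighter one gave -0.02 (adjusted p = 0.867).

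Among the remaining 8 genes of this role, Sec63, a chaperone-recruiting partner of the channel, was higher than in the hypothalamic nuclei both in the NIL, by 0.56 (adjusted p = 0.000382), and in the RVLM, by 0.40 (adjusted p = 0.00808). Of 2 dimmer Sec63 probe sets, one was called in the NIL at 0.44 (adjusted p = 0.00738) but not in the RVLM at 0.04 (adjusted p = 0.81), and the other in the RVLM at 1.56 (adjusted p = 0.000607) but not in the NIL at 0.68 (adjusted p = 0.0903). The latter was also called at 1.48 in PVN minus SON (adjusted p = 0.0174), where the brightest gave -0.13 (adjusted p = 0.607). Sec62, its partner, passed in no comparison with the probe set read here, and a dimmer one was called in RVLM minus PVN and SON at 0.25 (adjusted p = 0.0261). Spcs3, a signal peptidase subunit, was higher in the NIL than in the RVLM by 1.01 (SE 0.0964, adjusted p = 5.98e-09), and Sec61g, Spcs1, Spcs2, Ssr2 and Ssr3 were higher there by 0.34 to 1.31. For Ssr3, at 0.34, the dimmer probe sets gave 0.12 (adjusted p = 0.469) and -0.06 (adjusted p = 0.686). A dimmer Ssr3 probe set was called at -0.72 in PVN minus SON (adjusted p = 0.00283), where the brightest gave -0.35 (adjusted p = 0.0572). The same probe set was called at 0.32 in RVLM minus PVN and SON (adjusted p = 0.0395), where the brightest gave -0.16 (adjusted p = 0.201). The call against PVN and SON was lost for Sec61g without NIL array 3 (adjusted p = 0.0524) and for Spcs1 without NIL array 2 or 3 (adjusted p = 0.0606 and 0.0515).

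**Figure D3:**
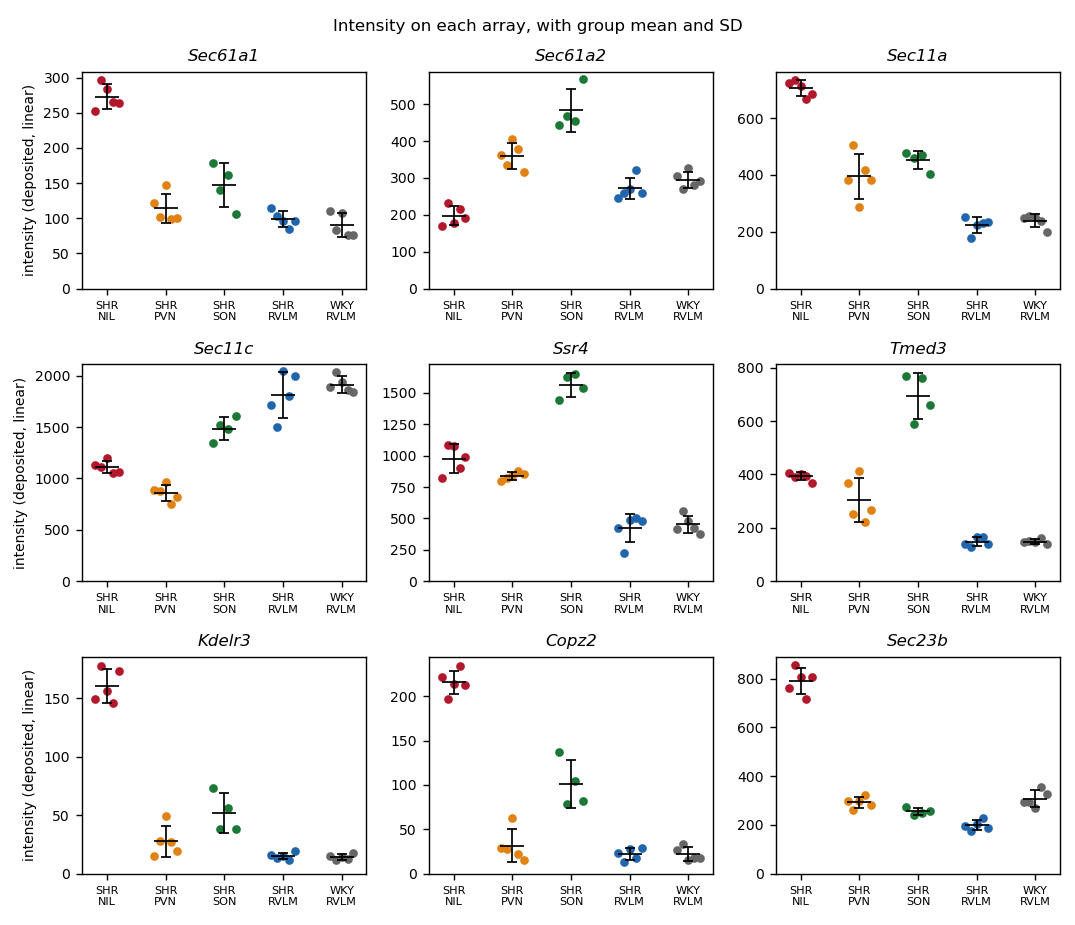
Deposited linear intensity of 9 genes on each array (points), with the group mean (horizontal bar) and SD (whiskers), n = 5 per group and 4 for the SON. Sec61a1 and Sec61a2, and Sec11a and Sec11c, run in opposite directions between NIL and RVLM, Ssr4 and Tmed3 are highest in the SON, and Sec23b is lower in SHR than in WKY RVLM.

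All 4 tested disulfide isomerases, which form and rearrange disulfide bonds in the ER, were higher in the NIL than in the RVLM, and all 4 were lower in the RVLM than in the hypothalamic nuclei. The shares of all named genes tested were 37.6% higher in the first comparison and 29.2% lower in the second. Pdia3 acts with the lectin chaperones on glycoproteins. Pdia3 read 2156, 1629, 2255, 1856 and 1885 on the NIL arrays, 1046, 844, 1215, 886 and 871 on the PVN arrays and 1217, 1109, 1439 and 1047 on the SON arrays. Pdia3 in the SHR RVLM read 757, 704, 724, 773 and 882. The NIL arrays lay above all others for this probe set, and the NIL minus RVLM log2 difference was 1.25 (SE 0.145, adjusted p = 1.1e-07). A second Pdia3 probe set went the other way against PVN and SON, at -0.51 (adjusted p = 9.43e-05) where the brighter one gave 0.83, and the mean of both gave 0.16 (adjusted p = 0.185). That second probe set gave -0.13 for NIL minus RVLM (adjusted p = 0.31), so the difference between those structures was not called by both. Pdia4, a larger family member, read 241, 324, 357, 307 and 280.1 in the NIL, 189.9, 177, 197, 172 and 193 in the PVN and 258, 249, 269.9 and 287 in the SON. Pdia4 in the SHR RVLM read 135, 124, 152, 141 and 128. The PVN arrays lay below the SON arrays for Pdia4, with a log2 difference of -0.49 (SE 0.124, adjusted p = 0.0113), and the RVLM arrays below both in deposited intensity. Pdia5 and Pdia6 were also lower in the PVN than in the SON, by 0.67 and 0.40 on the log2 scale, but leaving out SON array 1, 3 or 4 ended both calls, as did PVN array 2, and for Pdia6 also PVN array 4 or 5. The adjusted p-values were then 0.0504 to 0.115 for Pdia5 and 0.0596 to 0.0817 for Pdia6. The lower Pdia5 in the RVLM than in PVN and SON, by 0.43 on the log2 scale, was lost on leaving out any 1 of 8 arrays (RVLM arrays 1, 4 and 5, PVN arrays 1, 4 and 5 and SON arrays 3 and 4, adjusted p = 0.0512 to 0.138). Pdia2, the isoform best known from pancreas, was dim, with means of 2.69 to 15.2.

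The COPII coat buds vesicles from the ER, and 10 of its 10 genes were higher in the NIL than in the mean of PVN and SON, by 0.32 to 1.504. In that comparison 30.8% of all named genes tested were called higher. Sec23b encodes the subunit that activates the GTPase of Sar1. Sec23b read 759.7, 856, 808, 716 and 806 on the NIL arrays, 296, 263, 299.8, 323 and 280.1 on the PVN arrays and 275, 241, 248 and 259 on the SON arrays. Sec23b in the SHR RVLM read 197, 175, 202, 229 and 188 and in the WKY RVLM 296, 293, 268, 357 and 326. No NIL array of Sec23b was near another structure, and the log2 difference was 1.504 (SE 0.0929, adjusted p = 5.1e-12) against PVN and SON and 1.905 (SE 0.105, adjusted p = 6.01e-13) against the RVLM, the latter a fold of 3.74. Sec24d encodes a cargo-binding subunit. Sec24d read 422, 362, 410.2, 371 and 424 on the NIL arrays, 163, 153, 200.2, 176 and 160.1 on the PVN arrays and 175, 157, 170.2 and 149 on the SON arrays. Sec24d in the SHR RVLM read 71.4, 81.8, 106, 79.1 and 87.2. The groups of Sec24d separated in the order NIL, then PVN with SON, then RVLM, and NIL minus RVLM was 2.14 (SE 0.125, adjusted p = 1.58e-12), a fold of 4.42. Its PVN and SON levels differed by 0.09 (SE 0.133).

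Sec16a organises the ER exit sites where the coat assembles. Sec16a read 507, 470.2, 605, 587 and 566 on the NIL arrays, 309.7, 368, 369, 393 and 355 on the PVN arrays and 371, 333, 356 and 370.4 on the SON arrays. Sec16a in the SHR RVLM read 161, 201, 170.4, 168 and 160.2. It showed the same 3 separate levels, with a log2 difference of -0.995 (SE 0.0768, adjusted p = 7.91e-10) for RVLM minus PVN and SON and 1.58 (SE 0.0869, adjusted p = 6.01e-13) for NIL minus RVLM. Sec16b, its shorter relative, was dim and read 41.4, 41.9, 41.3, 60.2 and 41.1 in the NIL, 12.2, 12.1, 30.3, 31.7 and 26 in the PVN and 39.1, 33, 40.7 and 33.5 in the SON. The SHR RVLM arrays gave 17.7, 18.2, 21.9, 17.9 and 16.1 for Sec16b. Its PVN arrays lay below its SON arrays, with a log2 difference of -0.80 (SE 0.251, adjusted p = 0.0366), a call lost without PVN array 1 (-0.66, adjusted p = 0.0872) or PVN array 2 (-0.61, adjusted p = 0.0979) and without any SON array (adjusted p = 0.0554 to 0.101). Sec16b in the RVLM against PVN and SON was -0.52 (SE 0.209, adjusted p = 0.044), and this call was lost under 13 single omissions (adjusted p = 0.0503 to 0.0845). Without NIL array 4 Sec16b lay under the filter and was not tested. Sec24c and Sar1a, a cargo-binding subunit and the GTPase that starts the coat, were higher in the NIL than in the RVLM by 1.08 and 0.93. Sec24b was called at 0.70 in that comparison, but a second probe set gave -0.47 (adjusted p = 0.0137), so its direction depends on the probe set, and its call against PVN and SON was lost without NIL array 1, 3 or 5 or SON array 4 (adjusted p = 0.0568 to 0.0779). Sar1b was higher by 0.44, or 0.27 without RVLM array 2 (adjusted p = 0.0467). Sec13, an outer coat protein, was lower in the PVN than in the SON by 0.51 on the log2 scale, and its partner Sec31a was called only against PVN and SON, at 0.73.

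Of the 17 COPI and Arf genes, 15 were higher in the NIL than in the RVLM and 1, Copg2, was lower, against 37.6% and 30.2% of all named genes tested. The large coat subunits Copa, Copb1 and Copb2 were higher there by 1.198, 0.98 and 0.69, with no overlap between arrays. Copz2 encodes an alternative zeta subunit of the coat. Copz2 read 221, 197, 213, 234 and 212 on the NIL arrays, 29.3, 28.1, 63.1, 22.1 and 15.6 on the PVN arrays and 137, 78.9, 104 and 81.4 on the SON arrays. Copz2 in the SHR RVLM read 23.5, 13.3, 28.3, 17.4 and 29.2. The NIL arrays lay above the SON arrays and the SON arrays above the PVN arrays, of which array 3 was the highest. Copz2 too was under the filter among the RVLM arrays alone. Its NIL minus RVLM log2 difference was 3.24 (SE 0.301, adjusted p = 3.68e-09), or 1.66 on the log2(intensity + 64) scale. Its PVN minus SON difference was -1.77 (SE 0.319, adjusted p = 0.000961), or -2.07 without PVN array 3 (adjusted p = 3.23e-06). Its partner Copz1 differed by 0.46 between NIL and RVLM (adjusted p = 0.00413). On the scale with 64 added the PVN minus SON difference of Copz2 was -0.78.

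All 8 tested meningeal and connective tissue markers were lower in the PVN than in the SON, as Copz2 was. These 8 markers summed to 6418 to 8070 on the NIL arrays, 669 to 10765 in the PVN, 7741 to 12793 in the SON and 2670 to 4114 in the SHR RVLM. PVN array 3, at 10765, was the PVN array highest for the markers, for Copz2 (63.1) and for Kdelr3 (49.6). Magnocellular markers were also apart, with sums of 9444 to 12284 in the PVN and 13344 to 15337 in the SON, and 2 of 5 tested were lower in the PVN. Astrocyte and pituicyte markers overlapped, at 7909 to 12000 and 11515 to 12865, with 3 of 6 tested lower in the PVN and 1 higher. The part of these cells in the PVN minus SON differences was not tested.

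Arfgap1 encodes a protein that switches Arf1 off on COPI vesicles. Arfgap1 read 207, 229, 197, 212 and 214 on the NIL arrays, 152, 154, 106, 161 and 151 on the PVN arrays and 138, 128, 145 and 141 on the SON arrays. Arfgap1 in the SHR RVLM read 65.9, 87.4, 105, 96.7 and 82.1. In deposited intensity the NIL arrays of Arfgap1 lay above and the RVLM arrays below the hypothalamic ones, with PVN array 3 next to the highest RVLM array. On the shifted values that were tested, PVN array 3 lay just below RVLM array 3, so those groups overlapped. Its NIL minus RVLM log2 difference was 1.1999 (SE 0.131, adjusted p = 4.57e-08). Arfgap3 was lower in the RVLM than in PVN and SON by 0.83 on the log2 scale (SE 0.127, adjusted p = 1.36e-05). Copg2 encodes an alternative gamma subunit. Copg2 read 318, 367, 326, 281 and 304 on the NIL arrays, 449, 372, 381, 410.0 and 347 on the PVN arrays and 378, 399, 378 and 498 on the SON arrays. Copg2 in the SHR RVLM read 363, 382, 349, 402 and 378. The NIL minus RVLM log2 difference of Copg2 was -0.33 (SE 0.119, adjusted p = 0.0194), a call lost without NIL array 4 (-0.26, adjusted p = 0.0657) or RVLM array 4 (-0.29, adjusted p = 0.0517). Its relative Copg1 was 0.28 in the same comparison (adjusted p = 0.0315), lost without NIL array 1, 2, 3 or 5 or RVLM array 2 (adjusted p = 0.0531 to 0.0663). A dimmer Copg1 probe set gave 0.86 there (adjusted p = 2.76e-08). Against PVN and SON the dimmer one was called at 0.50 (adjusted p = 1.67e-05), where the brighter one gave -0.20 (adjusted p = 0.0802). In PVN minus SON it was called at -0.34 (adjusted p = 0.0221) and the brighter one, at -0.04, was not. Cope was lower in the RVLM than in PVN and SON by 0.37 on the log2 scale, and the call was lost without RVLM array 2 (-0.20, adjusted p = 0.135). Among the Arf GTPases, Arf1, Arf4, Arf5 and Arf6 were higher in the NIL than in the RVLM by 0.40 to 0.63, and Arf2 was not called, although a dimmer Arf2 probe set was, at 0.72 (adjusted p = 0.000342). Arf3 depended on the probe set in that comparison: the brighter one gave 0.37 and the other -1.43 (adjusted p = 1.53e-07). Of the NIL calls against PVN and SON, Arf2 at 0.43 was lost without NIL array 3 (adjusted p = 0.0504), Arf3 at -0.24 without NIL array 2 or 4 or SON array 1 (adjusted p = 0.0535 to 0.0812) and Arfgap3 at 0.36 without NIL array 1 or 2 (adjusted p = 0.0694 and 0.0926). Arfgap2, lower in the RVLM than in PVN and SON by 0.22 on the log2 scale, lost its call on leaving out any 1 of 8 arrays (RVLM arrays 2, 3 and 5, PVN arrays 2 and 4 and SON arrays 1, 2 and 3, adjusted p = 0.0513 to 0.112).

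Of the 11 tested cargo receptors, 9 were higher in the NIL than in the RVLM, where 37.6% of all named genes tested were called higher. The 3 KDEL receptors had their highest mean in the NIL and their lowest in the RVLM. The 3 KDEL receptors retrieve chaperones that leak from the ER. Kdelr2 read 783, 847, 842, 668 and 809.9 on the NIL arrays, 313, 335, 244, 339.8 and 345 on the PVN arrays and 512, 396, 449.8 and 455 on the SON arrays. Kdelr2 in the SHR RVLM read 308, 236, 233, 231 and 241. The NIL arrays of Kdelr2 lay far above the rest and the PVN arrays below the SON arrays, with log2 differences of 1.57 (SE 0.115, adjusted p = 6.53e-11) for NIL minus RVLM and -0.50 (SE 0.122, adjusted p = 0.00832) for PVN minus SON. Kdelr3 read 149, 177, 156, 146 and 174 on the NIL arrays, 14.7, 27.5, 49.6, 27.3 and 19.4 on the PVN arrays and 73.5, 38.6, 56.6 and 38 on the SON arrays. Kdelr3 in the SHR RVLM read 15.7, 13.6, 15, 11.9 and 19.4. Kdelr3 was dim outside the NIL and under the filter among the RVLM arrays alone, so its fold over the RVLM has no firm base. Its NIL minus RVLM log2 difference was 3.33 (SE 0.255, adjusted p = 1.51e-10) without a pseudocount and 1.47 on the log2(intensity + 64) scale. Its PVN minus SON difference of -0.94 (SE 0.271, adjusted p = 0.0233) came with overlapping arrays and was lost without PVN array 1 (-0.79, adjusted p = 0.0627), PVN array 5 (-0.81, adjusted p = 0.0587), SON array 1 (-0.74, adjusted p = 0.0979) or SON array 3 (-0.88, adjusted p = 0.0714). Without PVN array 3 it was -1.196 (adjusted p = 0.000485). Kdelr1 was higher in the NIL than in the RVLM by 1.46 (SE 0.104, adjusted p = 4.41e-11).

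Tmed3 had the widest difference between PVN and SON among the p24 proteins. Tmed3 read 407, 392, 401, 393 and 368 on the NIL arrays, 366, 251, 411, 223 and 268 on the PVN arrays and 768, 588, 761 and 659 on the SON arrays. Tmed3 in the SHR RVLM read 139.7, 127, 165, 164 and 140.0. The SON arrays lay above all others and the RVLM arrays below all others, with log2 differences of -1.19 (SE 0.181, adjusted p = 0.000218) for PVN minus SON and -1.56 (SE 0.151, adjusted p = 2.28e-08) for RVLM minus PVN and SON. Without PVN array 3 the first was -1.33 (adjusted p = 2.84e-06). Tmed2 was higher in the NIL than in PVN and SON by 1.03 (SE 0.0986, adjusted p = 8.03e-09), and Tmed1, Tmed4, Tmed8 and Tmed10 by 0.29 to 0.85. The Tmed10 call was lost without NIL array 2, 3 or 5 or SON array 4 (largest adjusted p = 0.0837). Tmed7 was the receptor called higher in the RVLM than in PVN and SON, by 0.37 (adjusted p = 0.0137), and the probe set read for Tmed9 passed in no comparison between structures. A dimmer Tmed9 probe set was called in NIL minus RVLM at 0.83 (adjusted p = 0.000686) and against PVN and SON at 0.45 (adjusted p = 0.0267). Tmed8, lower in the RVLM than in PVN and SON by 0.27 on the log2 scale, lost that call without RVLM array 1 or 5 (adjusted p = 0.0783 and 0.0533). Tmed5 and Tmed6 stayed dim, with means of 9.1 to 30.2 and 2.74 to 5.3. Tmed5 read 31.9, 43.5, 19.9, 24.9 and 30.9 in the SHR RVLM, above all NIL arrays, the reverse of most genes here. The NIL arrays gave 11.6, 8.4, 12.1, 1.65 and 11.7 for Tmed5. It passed the filter among the RVLM arrays but not among the SHR arrays, so this difference was not tested.

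Sec22b is a SNARE of ER and Golgi membranes, and Sec22a and Sec22c are grouped with it by name. Sec22c was the gene called higher in the PVN than in the SON. Sec22c read 169, 187, 169, 173 and 201 on the NIL arrays, 231, 202, 187, 215 and 197 on the PVN arrays and 129, 138, 124 and 142 on the SON arrays. Sec22c in the SHR RVLM read 127, 163, 157, 143 and 145. All PVN arrays of Sec22c lay above all SON arrays, with a log2 difference of 0.66 (SE 0.114, adjusted p = 0.0007), or 0.67 without PVN array 3. Of 2 dimmer Sec22c probe sets, one was called at 0.68 (adjusted p = 0.0016) and the other gave 0.41 and did not pass (adjusted p = 0.129). Sec22a read 91.7, 104, 89.4, 96.5 and 120.2 on the NIL arrays, 49.7, 65.7, 49.6, 55.9 and 71.1 on the PVN arrays and 69.1, 87.7, 53.9 and 103 on the SON arrays. Sec22a in the SHR RVLM read 58.1, 41.5, 61.8, 59 and 48.6. The NIL arrays of Sec22a lay above all RVLM arrays and overlapped the SON arrays, with a NIL minus RVLM difference of 0.82 (SE 0.167, adjusted p = 0.000184). Sec22b was higher there by 0.65 (adjusted p = 8.61e-05). A dimmer Sec22b probe set was called at -0.33 in PVN minus SON (adjusted p = 0.0393), where the brighter one gave -0.20 (adjusted p = 0.336). The Sec14-like genes went apart. Sec14l2 read 60.5, 42.7, 60.5, 61.7 and 64.1 on the NIL arrays, 123, 95, 78.7, 86.3 and 77.5 on the PVN arrays and 83.3, 80.7, 86.8 and 76.7 on the SON arrays. Sec14l2 in the SHR RVLM read 121, 139, 129, 136 and 142. The NIL arrays of Sec14l2 lay below all others and the RVLM had the highest mean, overlapped by PVN array 1, with a NIL minus RVLM difference of -1.31 (SE 0.155, adjusted p = 1.58e-07). A dimmer Sec14l2 probe set did not pass there, at -0.09 (adjusted p = 0.644), nor in RVLM minus PVN and SON, at -0.17 (adjusted p = 0.347) where the brighter one gave 0.69. Sec14l1 read 126, 157, 138, 192 and 130.0 in the NIL, 140.0, 111, 134, 133 and 117 in the PVN and 162, 95.5, 111 and 139 in the SON. With SHR RVLM values of 77.8, 76.5, 81.7, 78.5 and 93.6, Sec14l1 was higher in the NIL than in the RVLM by 0.76 (SE 0.15, adjusted p = 0.000131). Sec14l3 was dim, with means of 7.99 to 27.4.

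Between the strains, 1 of 60 tested genes was called in the RVLM, where 1.41% of all named genes tested were called (0.548% higher and 0.865% lower in SHR). That gene was Sec23b. The SHR arrays read 197, 175, 202, 229 and 188 for Sec23b and the WKY arrays 296, 293, 268, 357 and 326, means of 198 ± 20 and 308 ± 34.4 (SD, n = 5 each). Every SHR array was below every WKY array, with a log2 difference of -0.66 (SE 0.119, adjusted p = 0.00493), and the call was kept with each array left out in turn. Without SHR RVLM array 2 the difference was -0.59 (adjusted p = 0.00798). The 60 genes had a median log2 difference of -0.08 against -0.03 over all named genes, 48 of them below 0, and 3 had an unadjusted p under 0.05. Without SHR RVLM array 2, the array lowest for these genes, the median of the 60 was -0.0071, and Sar1b was called at 0.35 (adjusted p = 0.0372). Summed oligodendrocyte markers were 13869 to 17010 in SHR and 13076 to 19734 in WKY RVLM, and pan-neuronal markers 19312 to 23300 and 17417 to 21915, so both ranges overlapped between strains.

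The other strain differences at an unadjusted p under 0.05 were Sec22c and Copg1. SHR and WKY arrays of Sec22c overlapped, with WKY values of 111, 98.3, 118, 132 and 120.2, and its difference was 0.32 (SE 0.115, adjusted p = 0.313). A dimmer Sec22c probe set was called at 1.06 (adjusted p = 0.000847), and the mean of the kept probe sets at 0.64 (adjusted p = 0.01). Copg1 read 559, 543, 514, 515 and 508 in SHR and 431, 441, 464, 453 and 449 in WKY. All SHR arrays of Copg1 lay above all WKY arrays, yet the difference was 0.21 (SE 0.0815, adjusted p = 0.371) and did not pass. A dimmer Arfgap1 probe set was called at 0.50 (adjusted p = 0.0331), where the brighter one gave 0.03 (adjusted p = 0.971). Of the 9 tested genes of the COPII coat, the 8 other than Sec23b did not pass between strains, and their highest difference was 0.30. The Sec24 and Sec16a partners among them differed by -0.18 to 0.05. Sar1b was called without SHR RVLM array 2, as given above.

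**Figure D4:**
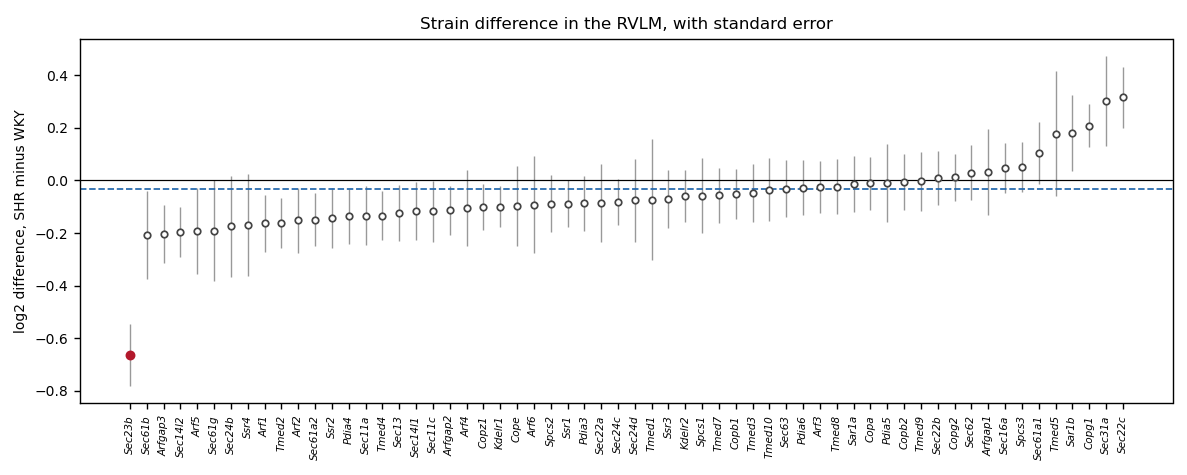
Log2 difference, SHR minus WKY in the RVLM, of the 60 tested genes in order of size, with bars of 1 standard error. The dashed blue line is the median of all named genes tested. Sec23b at -0.66 is the filled point that passed the adjusted p threshold, and the others lie between -0.21 and 0.32.

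Genes that work beside these were read in the same fits as 4 further lists. Of 34 ER chaperone and unfolded protein response genes tested, 21 were higher and 3 lower in the NIL than in the RVLM, 17 and 5 in the NIL than in PVN and SON, 1 and 19 in the RVLM than in PVN and SON, and 0 and 7 in the PVN than in the SON. Over all named genes tested, 37.6% were called higher and 30.2% lower in the first comparison, and 30.8% and 28.1% in the second. The shares were 21.4% and 29.2% in the third, and 9.02% and 7.12% in PVN minus SON. Herpud1, an ER-associated degradation factor, was higher in the NIL than in PVN and SON by 1.28 (SE 0.145, adjusted p = 1.13e-07), and Ero1a, the oxidase that recharges disulfide isomerases, was lower by 0.95 on the log2 scale (SE 0.0892, adjusted p = 6.66e-09). P4hb, the founding disulfide isomerase, was higher in the NIL than in the RVLM by 1.57 (SE 0.106, adjusted p = 1.83e-11). Atf6, an ER stress sensor, was the gene of these lists called between strains, at 0.62 higher in SHR (SE 0.123, adjusted p = 0.0117), with no overlap between arrays. In that comparison 0.548% of all named genes tested were called higher in SHR. Of 12 oligosaccharyltransferase genes, which attach N-glycans beside the translocon, 11 were higher in the NIL than in the RVLM, led by Ddost at 1.70 (SE 0.16) and Stt3a at 1.69 (SE 0.131). Of 8 signal recognition particle genes, which bring ribosomes to the ER, 2 were higher and 2 lower in that comparison.

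Of 43 other ER to Golgi transport factors, 27 were higher and 6 lower in the NIL than in the RVLM, where 37.6% of all named genes tested were called higher and 30.2% lower. The summed intensity of the 43 was nonetheless highest in the RVLM, at 19113.5 to 22193.8 on the SHR arrays. It was 18477.5 to 19062 on the NIL arrays, 17004 to 17288 in the SON and 15370 to 16249 in the PVN. Lman1, a receptor for glycoprotein cargo, was higher in the NIL by 1.88 (SE 0.149, adjusted p = 2.57e-10). A pair of SNAREs went the other way: Ykt6 was -3.10 (SE 0.181, adjusted p = 1.54e-12) and Gosr1 -3.02 (SE 0.332, adjusted p = 5.12e-08). In PVN minus SON, 6 of the 43 were lower and 0 higher, with Surf4, a cargo receptor of the ER, at -0.73 (SE 0.12, adjusted p = 0.000448). Of all named genes tested, 7.12% were called lower and 9.02% higher there.

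Promoters were printed for the genes that hold the core of the unfolded protein response element, TGACGTGG, the letters through which ATF6 and XBP1 are known to act. RefSeq promoters (build GRCr8) were at hand for 58 of the 66 genes, with none used for Kdelr2, Pdia3, Pdia6, Sar1a, Sec24c, Sec24d, Sec61a1 and Sec61a2. The core was found on either strand within 250 bases before the start in 4 of these (6.9%), Kdelr3, Copb2, Arf1 and Arf4, and in 0.594% of all 27457 genes in the table. The 150 bases before each start are given 5′ to 3′ on the gene's strand, with the core in capitals, as CCACGTCA where it lies on the other strand.
Kdelr3 (chr7:112959482-112959631, plus strand): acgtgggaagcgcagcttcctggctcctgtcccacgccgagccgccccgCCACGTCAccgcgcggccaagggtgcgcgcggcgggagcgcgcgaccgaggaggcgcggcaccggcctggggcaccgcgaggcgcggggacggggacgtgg
Copb2 (chr8:108040537-108040686, plus strand): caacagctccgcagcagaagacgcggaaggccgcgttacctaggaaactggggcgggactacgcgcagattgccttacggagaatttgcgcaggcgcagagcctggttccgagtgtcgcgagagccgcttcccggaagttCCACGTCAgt
Arf1 (chr10:44513995-44514144, minus strand): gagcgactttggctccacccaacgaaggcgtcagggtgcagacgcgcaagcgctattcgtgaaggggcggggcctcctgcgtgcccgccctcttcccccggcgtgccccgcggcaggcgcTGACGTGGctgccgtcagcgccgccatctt
Arf4 (chr16:1903286-1903435, plus strand): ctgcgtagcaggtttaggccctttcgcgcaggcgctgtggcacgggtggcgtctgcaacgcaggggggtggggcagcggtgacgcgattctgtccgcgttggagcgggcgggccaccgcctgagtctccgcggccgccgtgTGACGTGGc
The core began 101 bases before the start in Kdelr3, 10 in Copb2, 30 in Arf1 and 9 in Arf4. The shorter letters TGACGT, which the core contains, were in 15.5% of the 58 and 7.68% of all genes. The longer ER stress response element was in 0 of the 58 and in 0.0765% of all genes. NIL minus RVLM differences of the 4 genes with the core were 3.33 for Kdelr3, 0.69 for Copb2, 0.40 for Arf1 and 0.63 for Arf4, 1 above and 3 below the median of 0.73 of the 62. A match of letters describes these windows and was not tested as a site.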

How the data were processed

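Total RNA from 24 pools was amplified with the MessageAmpII kit after storage in RNAlater and QIAzol extraction, per the labels' protocols. The deposited values are linear intensities of Affymetrix GCOS 1.2, per the submitters' processing notes, with settings not given in the sources used here. The deposited intensities have a 2% trimmed mean of 100.02 to 100.03 on every array and medians of 35.9 to 46.5. Their number limits the precision, and no read depth applies.

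Of 31099 probe sets, 57 controls were left out. Log2 intensity, with no pseudocount, was shifted to a common median per array. Each fit kept the 18625 probe sets with a mean above the 40th percentile of all probe set means on its arrays. Differences were fitted with limma 3.58.1 in R 4.3.3 (lmFit, eBayes with an intensity trend), 19 SHR arrays for structures and 10 RVLM arrays for strains, and adjusted by Benjamini-Hochberg over all kept probe sets. The script was tested on simulated data. The probe annotation is GEO's platform table, in which 20826 probe sets name 1 gene, 436 several and 9780 none, and 101 belong to the 66 genes. Overlap in the rule below was judged on the shifted values, and array values in the text are as deposited.

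Values on every array are given for the called members with the widest differences, at most 5 in each direction and comparison, among those whose groups do not overlap, for every member called between strains, and for the 2 members of each role with the widest called difference. For the other lists at most 3 called genes per comparison are named. Members, lists and rules were chosen with earlier results of these data known. Copg1, Crh and other genes named outside these rules were chosen after their values were seen. Replicate numbers were checked as pairs: the residuals of same-numbered arrays correlated by -0.108 to 0.172, and the numbers were not used as pairs. Alternatives covered scaling, filter, pseudocount, probe set choice, array weights, spread model, arrays in the fit, a replicate block and each array left out.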

Additional observations from a re-analysis of the deposited data

Results flagged for a closer look

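Among the 115 group sets of 4 or 5 arrays of the 23 genes with values on every array, 9 held an array whose gap to its nearest neighbour was wide for the range of its group. Chance gives this in about 1 group in 20. SHR RVLM array 2 accounts for 3 of them, with the lowest Ssr4 (223.7) and Sec61b (307.2) of its group and the highest Sec16a (200.7). PVN array 3 had the lowest Arfgap1 (106.3) and the highest Copz2 (63.07) of the PVN arrays. Kdelr2 was high on SHR RVLM array 1 (308.2), and Sec14l2 was low on NIL array 2 (42.7). Sec16b was high on NIL array 4 (60.22) and low on WKY RVLM array 5 (15.37).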

How the results depend on the processing

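The counts of called genes between NIL and RVLM, NIL and the hypothalamic nuclei, RVLM and the hypothalamic nuclei, and over all 4 SHR structures stayed within 1.5 times their main value under every alternative run, and their ranges with each array left out were 53 to 57, 42 to 49, 34 to 39 and 56 to 60. The PVN minus SON count of 15 became 24 with values as deposited, 25 with quantile normalization, 31 with array weights and 9 with the PVN and SON arrays alone, and ran from 10 to 22 with each array left out. The strain count of 1 became 2 when a gene's kept probe sets were averaged and ran from 1 to 2 with each array left out, the 2 coming without SHR RVLM array 2. With the replicate number as a block the counts were 14 for PVN minus SON, 47 for NIL and 38 for RVLM against the hypothalamic nuclei, 56 for NIL minus RVLM, 59 over the structures and 1 between strains, and Sec61a2 in PVN minus SON (-0.37, adjusted p = 0.0735) and Arfgap2 in RVLM minus PVN and SON (-0.21, adjusted p = 0.0542) were no longer called. For single genes with values on every array, 2 values changed sign with a call in the main fit or the alternative. Sec11c in NIL minus PVN and SON was 0.15 under quantile normalization, and Ssr1 in that comparison was 0.21 with the mean of its probe sets. Of the other values of these genes, 3091 stayed on the same side of the threshold, 40 lost and 27 gained a call. Changes of sign where neither value was called are included in the 3091. The cause of these changes was not tested.

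Limits are few: each array is 1 pool, the strain comparison has 5 pools a side, dim genes (Copz2, Kdelr3, Sec16b) have folds that shrink with a pseudocount, and for some called genes another probe set had the opposite sign: Pdia3, Arf3, Sec24b and Ssr3 in NIL minus RVLM, Pdia3 and Sec24b in NIL minus PVN and SON, and Arf3, Sar1a and Sec14l2 in RVLM minus PVN and SON. Sequence differences between strains under a probe were not examined.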
